A study of Mus musculus with 14 samples.

Results

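Haem oxygenase, biliverdin reductase, ferritin, iron and haem transporter genes were followed in mouse fibroblasts that had been scratched and given an extract of skin. The set held 10 genes, Hmox1, Hmox2, Blvra, Blvrb, Fth1, Ftl1, Slc40a1, Slc48a1, Tfrc and Bach1, chosen by symbol from the 43472 genes listed in both tables of normalised counts. All 10 were found in both tables and all 10 passed the filter on low values at 5 h, Slc40a1 only through its treated libraries. Primary fibroblasts had been grown from the tail tip of C57BL/6 mice, a wild-type inbred strain, and every culture, untreated or treated, carried a scratch wound. The AMG (autologous micrograft) was made by breaking up mouse skin in saline and filtering it. The study's methods add a centrifugation that removed cells and debris, so the extract was cell-free. AMG-treated cultures received this extract diluted in their growth medium, while untreated cultures received none. Replicate 1 was collected once in each group at 1, 5, 12 and 24 h (8 libraries), and replicates 2, 3 and 4 were collected in each group at 5 h only (6 libraries). The ages of the mice were not given in the sources used here, and haem, iron and protein were not among the data analysed here.

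Haem, the iron-holding ring of haemoglobin and many enzymes, is opened by haem oxygenase into biliverdin, carbon monoxide and ferrous iron. Biliverdin reductase, in adult tissue mainly the A form, then turns biliverdin into bilirubin. Ferritin shells of heavy and light chains store the iron, and ferroportin carries iron out of the cell. BACH1 binds MAF recognition sites and keeps genes such as Hmox1 low until haem binds it or NRF2, the main factor of the oxidative stress response, takes its place. Cells also sense iron through the iron regulatory proteins, which bind an RNA hairpin, the iron-responsive element, when iron is scarce: in a 5′ UTR this blocks translation, and in a 3′ UTR it protects the mRNA from decay.

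The hairpin is shown because it divides the 10 genes into those whose mRNA carries the iron signal in its own sequence and those that do not. The GENCODE transcripts of GRCm38 were searched on the sense strand for a C, any 5 bases, CAGTG, any base, and 5 bases that pair with the first 5, with G to T pairs allowed. Of 22500 genes with a coding transcript, 0.778% held such an element in a UTR, and 4 of the 10 genes did: Fth1, Ftl1 and Slc40a1 in the 5′ UTR, and Tfrc with 4 elements in the 3′ UTR. Capitals mark the bulged C and the CAGTG of the loop.
Fth1, chr19:9982732-9982760, plus strand: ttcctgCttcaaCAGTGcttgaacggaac
Ftl1, chr7:45459779-45459807, minus strand: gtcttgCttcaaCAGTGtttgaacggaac
Slc40a1, chr1:45925465-45925493, minus strand: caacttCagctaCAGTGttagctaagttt
Tfrc, chr16:32631219-32631247, plus strand: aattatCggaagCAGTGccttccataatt
Tfrc, chr16:32631598-32631626, plus strand: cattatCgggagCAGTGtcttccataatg
Tfrc, chr16:32631663-32631691, plus strand: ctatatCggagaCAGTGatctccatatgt
Tfrc, chr16:32631710-32631738, plus strand: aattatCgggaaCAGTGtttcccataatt
The loop letters are the same in all 7, as the search required, and the 5 paired bases of Fth1 and Ftl1 are the same, while the other stems differ.

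The libraries held 12545537 to 34696529 reads. The fibroblast markers Col1a1, Col1a2 and Col3a1 had mean levels of 49297 to 238625 normalised counts in the untreated cultures at 5 h, so these markers of the labelled cell type were abundant. The other fibroblast markers were lower, and Lum and Thy1 differed widely between replicates. In untreated replicates 2, 3 and 4 Lum had 6374, 333 and 1539, and Thy1 1339, 14712 and 1068. Dcn had 5151, 1372 and 3657, and Pdgfra 728, 785 and 1084. The summed level of the 7 fibroblast markers was 338442 to 486306 in untreated and 247696 to 329212 in treated replicates 2 to 4. Of these 7, 0 passed with limma or edgeR, 1 passed with DESeq2 and 1 stood at an unadjusted p under 0.05, while 5 were lower with the replicate number as a block. Over all genes tested the blocked fit called 19.3% lower, DESeq2 called 1434 of 13096, and 23.1% had an unadjusted p under 0.05 by limma. In such bulk samples fewer cells of a type and less RNA per cell cannot be told apart. Markers of red blood cells were at or near 0: the 4 globin genes summed to 0 reads in each untreated and 0 to 1 read in each treated library of replicates 2 to 4, and to at most 14 reads in any of the 14 libraries. The 8 macrophage and leukocyte markers summed to 159 to 1259 normalised counts in untreated and 186 to 1142 in treated cultures, overlapping ranges. These markers were highest in replicate 4, where Lyz2 had 1808 reads untreated and 811 treated, and Ptprc 22 and 10. In replicates 2 and 3 Lyz2 had 55 to 144 reads and Ptprc 0 to 1. The 7 keratinocyte markers summed to 153 to 284 and 98.4 to 144, ranges that did not overlap, with Krt5, Krt14 and Krt1 at 0 in all 6. Most of each sum was Dsp, with 240, 131 and 169 in untreated and 91.6, 61.5 and 67.8 in treated replicates 2, 3 and 4. The part of these cell types in the results was not tested. In replicate 1, the library Untreated 5h replicate 1 stood apart: 84 ribosomal protein genes took 6.93% of its reads, against 5.05% in AMG-treated 1h replicate 1 and 2.29 to 3.21% in the other 6 libraries of that replicate. In replicates 2, 3 and 4 this share was 2.38, 2.80 and 2.25% in untreated and 3.36, 3.13 and 3.44% in treated cultures, so it was higher in all treated libraries, as were the short transcripts of Fth1, Ftl1 and Blvrb, and its part in those differences was not tested.

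At 5 h, 7 of the 10 genes were higher in all 3 AMG-treated replicates than in all 3 untreated ones and 0 were lower in the same way, while over the 13096 genes tested 28.7% showed no overlap, 15.1% higher and 13.6% lower. The median log2 fold change was 0.86 over the 10 genes and -0.02 over all genes tested. Over the 9 genes that reached the filter's mean in both groups, which leaves out Slc40a1, 6 were higher without overlap and the median was 0.83. Values were compared with limma on log2(normalised count + 1), a scale that understates the change of low genes, with Benjamini-Hochberg adjustment over all genes tested. Hmox1 and Blvrb passed an adjusted p of 0.05, so 2 of 10 were called higher, where 0.97% of all genes were (1.24% in either direction). No gene of the 10 was called lower (0 of 10, against 0.267% of all genes), and that count was 0 with edgeR and with DESeq2 too. An unadjusted p under 0.05 was found for 7 of the 10, all higher and Slc40a1 among them, and for 23.1% of all genes. Samples with the same replicate number deviated together, and when the replicate number was added as a block, 7 of the 10 genes passed, all higher (6 of the 9 without Slc40a1), against 37.2% of all genes, 17.9% higher and 19.3% lower. With replicate 1 at 5 h added to that blocked design in edgeR, a fit chosen after seeing the data, only Hmox1 and Slc48a1 of the 10 passed, against 3.78% of all genes.

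**Figure D1:**
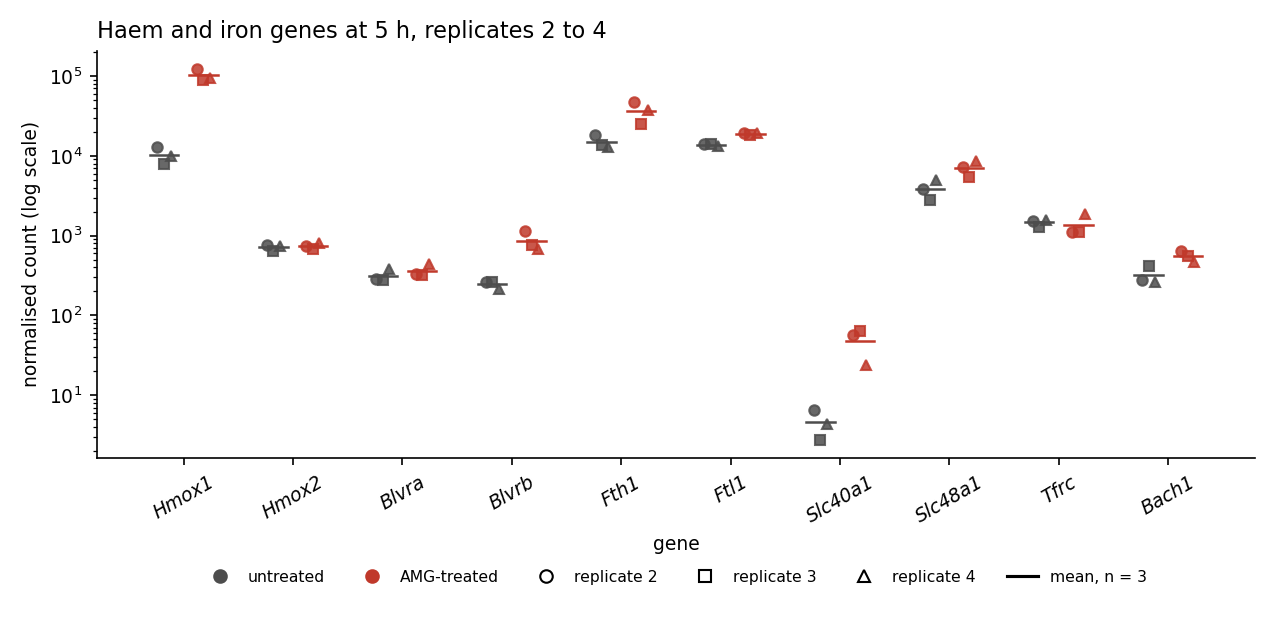
Normalised counts (log axis) of the 10 genes in each library at 5 h, replicates 2 to 4, with 3 untreated (grey) and 3 AMG-treated (red) points for each gene, shaped by replicate, and their mean as a bar. Hmox1, Blvrb, Fth1, Ftl1, Slc40a1, Slc48a1 and Bach1 show no overlap between the groups, and Hmox2, Blvra and Tfrc overlap.

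Hmox1, the inducible haem oxygenase (ENSMUSG00000005413.8, chr8:75093621-75100589, GRCm38/mm10, plus strand), had the largest log2 fold change of the 10 genes in this test, although Slc40a1, with few reads, came above it with a pseudocount of 0.1 (3.33), with the length correction (3.19 against 3.17), with edgeR (3.37) and with DESeq2 (3.40). Its normalised counts were 12850, 7944 and 10045 in untreated and 121504, 90353 and 93339 in AMG-treated replicates 2, 3 and 4. The lowest treated value was about 7 times the highest untreated one. Its fold change was 10.0 (95% interval 6.90 to 14.5), a log2 fold change of 3.32 ± 0.23 (SE, n = 3 per group), with an adjusted p of 0.00567 by limma and 1.99e-07 with the replicate block. Without AMG-treated 5h replicate 2 the adjusted p was 0.0708, and in the other 22 alternatives it stayed under the threshold. In replicates 2 to 4 the share of all reads that Hmox1 took went from 0.0455 to 0.0715% in untreated libraries to 0.475 to 0.653% in treated ones. Its place among all genes listed by normalised count went from 161 to 287 to 6 to 12. In replicate 1 at 5 h the share was 0.0139% untreated and 0.0622% treated, so that treated library lay within the untreated range of replicates 2 to 4. Within the pairs of equal number the log2 ratios were 3.24, 3.51 and 3.22, a narrow range.

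Hmox2 codes for the constitutive haem oxygenase (chr16:4726361-4766742, plus strand), and it overlaps Cdip1 on the other strand. It had 773, 634 and 741 normalised counts in untreated and 739, 679 and 800 in treated replicates 2, 3 and 4. The groups overlapped fully, and the log2 fold change of 0.05 had an interval of -0.28 to 0.38 (adjusted p = 0.862 by limma, 0.747 with the block). A rise of the size seen for Hmox1 lies far outside that interval.

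The genes of biliverdin reductases B and A differed from each other. Blvrb codes for biliverdin reductase B, which is also a flavin reductase (chr7:27447978-27466144, plus strand). Its normalised counts were 261, 266 and 212 in untreated and 1143, 771 and 678 in treated replicates 2, 3 and 4. All treated values were more than 2 times the highest untreated value, and the fold change was 3.43 (log2 fold change 1.78 ± 0.23 SE, adjusted p = 0.0223 by limma, 4.72e-05 with the block). Leaving out any 1 of 5 libraries ended the call: the adjusted p was 0.109 without Untreated 5h replicate 2, 0.0555 without replicate 3 and 0.106 without replicate 4 of that group, and 0.123 without AMG-treated 5h replicate 2 and 0.108 without AMG-treated 5h replicate 4, and it was 0.0503 by limma without the trend. With replicate 1 at 5 h included, edgeR gave an adjusted p of 0.234 with the table as batch. Blvra codes for biliverdin reductase A (chr2:127070665-127097084, plus strand), the main enzyme that makes bilirubin in adult tissue, and its counts were 289, 276 and 379 in untreated and 331, 317 and 438 in treated libraries. The groups overlapped, although the 3 pairs gave nearly the same log2 ratio (0.19, 0.20 and 0.21), and the log2 fold change of 0.20 had an interval of -0.28 to 0.68 (adjusted p = 0.582, 0.235 with the block).

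Both ferritin chains were higher in all treated libraries, the heavy chain by more. Fth1, the heavy chain that oxidises ferrous iron as it enters the shell (chr19:9980598-9985098, plus strand), had 18283, 13850 and 12968 normalised counts in untreated and 46636, 25346 and 37254 in treated replicates 2, 3 and 4. The lowest treated library was above the highest untreated one, but the treated libraries spread widely, and the log2 fold change of 1.25 ± 0.26 (SE) missed the threshold (adjusted p = 0.0721) and passed with the block (0.000219). Without AMG-treated 5h replicate 3, the lowest treated library, the adjusted p was 0.0141, in a fit that called 2199 genes in place of 162, and without each of the other 5 libraries it was 0.137 to 0.269. Ftl1, the light chain (chr7:45457944-45459884, minus strand), had 13874, 14242 and 13378 in untreated and 19047, 18029 and 19106 in treated libraries. Both groups of Ftl1 were tight, and the log2 fold change was 0.44 ± 0.12 (SE), with an adjusted p of 0.112, and 0.00665 with the block. With the block and a correction for transcript length together, Ftl1 gave 0.09 and an adjusted p of 0.430, while Fth1 gave 0.96 and 0.000137. Without the pair of replicate 2 or of replicate 4 the blocked adjusted p of Ftl1 was 0.0646 or 0.0767. Ftl1 has processed copies in the genome, Ftl1-ps1 and Ftl1-ps2, and reads shared with them could not have been kept as unique, so its level is uncertain.

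The ratio of Fth1 to Ftl1 reads within a library does not depend on the size factors. It was 1.32, 0.973 and 0.969 in untreated and 2.45, 1.41 and 1.95 in treated replicates 2, 3 and 4. All treated ratios were above all untreated ones, 1.93 ± 0.52 against 1.09 ± 0.20 (SD, n = 3), with p = 0.10 by a two-sided exact permutation test, the smallest p that 3 against 3 can give.

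The transporters and the repressor showed a range of sizes. Slc40a1 codes for ferroportin, the iron exporter (chr1:45908068-45926523, minus strand), and was nearly silent in untreated cells, with 6.60, 2.78 and 4.33 normalised counts (6, 2 and 8 reads) in replicates 2, 3 and 4. It had 57.3, 63.9 and 23.7 (45, 78 and 21 reads) in treated cells. The groups did not overlap, and the log2 fold change was 3.08 ± 0.56 (SE), or 1.93 with a pseudocount of 10. Because it entered the test through its treated libraries alone, its values are given as a description. Slc48a1, which carries haem from the endosome and lysosome into the cytosol (chr15:97778520-97792692, plus strand), had 3859, 2810 and 4952 in untreated and 7228, 5488 and 8497 in treated libraries. Each treated library exceeded each untreated one, with a log2 fold change of 0.88 ± 0.25 (SE), an adjusted p of 0.117, and 0.000166 with the block. Its adjusted p was 0.0369 without AMG-treated 5h replicate 3 and 0.208 to 0.345 without each of the other 5 libraries. Slc48a1 overlaps Hdac7 on the opposite strand, and whether strand was used in counting was not given in the sources used here.

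Bach1, the haem-binding repressor of Hmox1 (chr16:87698945-87733346, plus strand), had 274, 422 and 261 normalised counts in untreated and 650, 559 and 468 in treated replicates 2, 3 and 4. At 5 h each treated value was above each untreated one. The log2 fold change was 0.83 ± 0.23 (SE), with an adjusted p of 0.116, 0.00485 with the block, and 0.0591 with the block when the pair of replicate 2 was left out. Tfrc, the transferrin receptor that takes up iron (chr16:32608920-32632794, plus strand), had 1523, 1295 and 1573 in untreated and 1113, 1105 and 1857 in treated libraries. The groups overlapped and the pairs went both ways, with log2 ratios of -0.45, -0.23 and 0.24. Its log2 fold change was -0.15, with an interval of -0.68 to 0.38 (adjusted p = 0.728, 0.400 with the block).

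**Figure D2:**
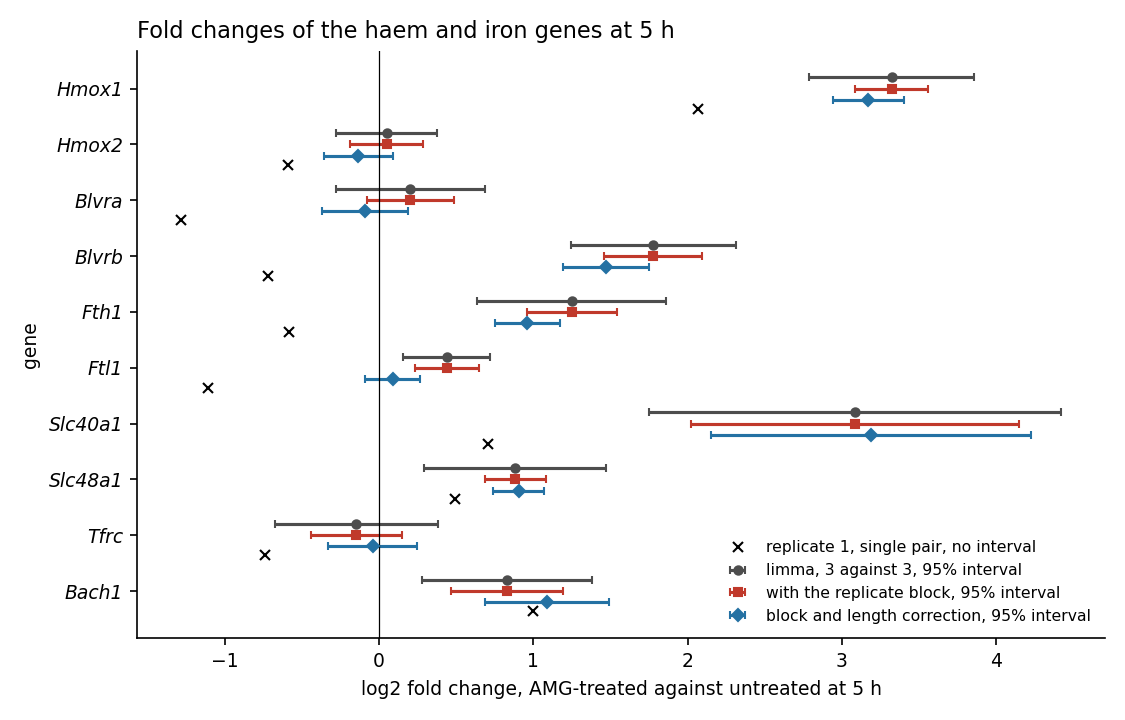
Log2 fold change of AMG-treated against untreated cultures at 5 h for each of the 10 genes, with 95% intervals, by limma (grey circles, n = 3 per group), with the replicate block (red squares) and with the block and the length correction (blue diamonds), and as a cross the single pair of replicate 1. Hmox1 stands at 3.32 and Slc40a1 at 3.08 with the widest intervals, the limma intervals of Hmox2, Blvra and Tfrc cross 0, and the replicate 1 pair lies below the limma value for each gene except Bach1.

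Per kilobase of median transcript length, Ftl1 and Fth1 had the highest levels of the 10 genes in untreated cultures, 18805 ± 589 and 16183 ± 3066 normalised counts per kb (SD, n = 3), and their ranges overlapped. Hmox1 followed at 6552 ± 1569 and Slc48a1 at 1527 ± 422. Hmox2 (514 ± 52.6), Tfrc (434 ± 43.9), Blvra (346 ± 61.9) and Blvrb (284 ± 34.3) came next, and each overlapped its neighbour in that order. Bach1 was at 54.4 ± 15.2 and Slc40a1 at 1.36 ± 0.57. In treated cultures Hmox1 came first at 64839 ± 10955, its lowest library (57587) above the highest of Fth1 (50200), whose mean was 39195 ± 11485, and Ftl1 was at 25463 ± 823. Blvrb, at 997 ± 284, moved above Hmox2 (531 ± 43.4), Tfrc (402 ± 128) and Blvra (399 ± 73.0). This order held for replicates 2 to 4 at 5 h. In the treated libraries of replicate 1 Hmox1 was below both ferritin chains at each time, with 8050, 8406, 13145 and 17889 normalised counts per kb at 1, 5, 12 and 24 h, against 45842 to 83909 for Fth1 and 20187 to 48451 for Ftl1.

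The time course of replicate 1 had 1 library per group and time, so it has no replicate check and no test. A gene was counted as higher or lower past a log2 ratio of 1 or -1, over 13498 genes, and intervals cover counting error only. At 1 h, 1 of the 10 genes was above 1 (11.3% of all genes) and 1 below -1 (10.7%). At 5 h it was 1 above (13.3%) and 2 below (12.6%). At 12 h 5 of the 10 were above (5.93% of all genes) and 0 below (6.9%), and at 24 h 6 were above (6.05%) and 0 below (8.05%). The median log2 ratio of the 10 genes was 0.51, -0.59, 1.00 and 1.40 at 1, 5, 12 and 24 h, while that of all genes lay between -0.06 and 0.02. In the same pairs 5 macrophage and leukocyte markers had median log2 ratios of -0.61, -1.90, -0.99 and -1.67, and 0, 1, 0 and 0 of the 5 were higher in the treated library. Their part in the time course was not tested.

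Hmox1 was higher in the treated library at every time. It had 7967 normalised counts untreated and 12631 treated at 1 h, and 3145 and 13189 at 5 h. The later pairs were 2867 and 20624 (12 h) and 4595 and 28068 (24 h). The log2 ratios were 0.66, 2.07, 2.85 and 2.61, so the difference was smallest at 1 h. Slc40a1 was first high at 12 h: it had 11 reads untreated and 2 treated at 1 h (fold 0.360, 95% counting interval 0.0387 to 1.65), and 7 and 25 reads at 5 h (1.69, 0.709 to 4.62). At 12 h its normalised count was 11.7 untreated and 181 treated, 15.5-fold (9.28 to 27.6), and at 24 h it was 9.19 and 186, 20.3-fold (11.4 to 39.9). The ferroportin ratio at 5 h in replicate 1 was therefore below the 3 ratios of replicates 2 to 4. Slc48a1 had log2 ratios of -0.06, 0.49, 1.31 and 1.75 at 1, 5, 12 and 24 h.

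The short transcripts of Fth1, Ftl1, Blvra and Blvrb were lower in the treated library at 5 h of replicate 1, opposite to replicates 2 to 4. Fth1 had 63858 normalised counts in Untreated 5h replicate 1 and 42587 in its treated partner, a log2 ratio of -0.58, against 1.10, 1.11 and 1.48 at 1, 12 and 24 h. Blvrb went from 1421 to 861 (-0.72), against 0.99, 1.07 and 2.20, and Ftl1 had -1.11 at 5 h and 0.91, -0.05 and 0.74 at the other times. Beside these stand the ribosomal share of that untreated library and a relation of the log2 ratio to transcript length over 12781 genes, with Spearman's rho of 0.50 at 5 h and of -0.53, 0.18 and -0.22 at 1, 12 and 24 h. After a length correction the 5 h ratios were 0.22 for Fth1, 0.12 for Blvrb, -0.17 for Ftl1, -0.46 for Blvra and 2.49 for Hmox1, so Ftl1 and Blvra stayed below 0 and Fth1 and Blvrb changed sign. The corrected 1 h ratios were 0.30 for Fth1 and -0.068 for Ftl1. In replicates 2, 3 and 4 rho was -0.36, -0.21 and -0.42, and the length correction left the log2 fold change of Blvrb at 1.47. What set the length relation was not tested.

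Without the length correction Tfrc was not higher in the treated library at 1 and 5 h and was at 12 and 24 h, with log2 ratios of -0.03, -0.74, 0.94 and 1.33. With the length correction the ratios of Tfrc were 0.22, -0.95, 0.92 and 1.37, so the sign at 1 h changed. Its normalised count was 445 untreated and 854 treated at 12 h, and 384 and 963 at 24 h, and the untreated level was 1036 at 1 h. Bach1 had 0.35, 1.00, 0.03 and -0.60 at 1, 5, 12 and 24 h, and 0.87, 0.40, -0.09 and -0.46 with the length correction, so that its highest ratio was at 5 h without the correction and at 1 h with it. Both gave a lower treated value at 24 h, where Hmox1 was high. Hmox2 lay between -0.59 and 0.43, and Blvra had 0.95, -1.28, -0.44 and 0.00.

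**Figure D3:**
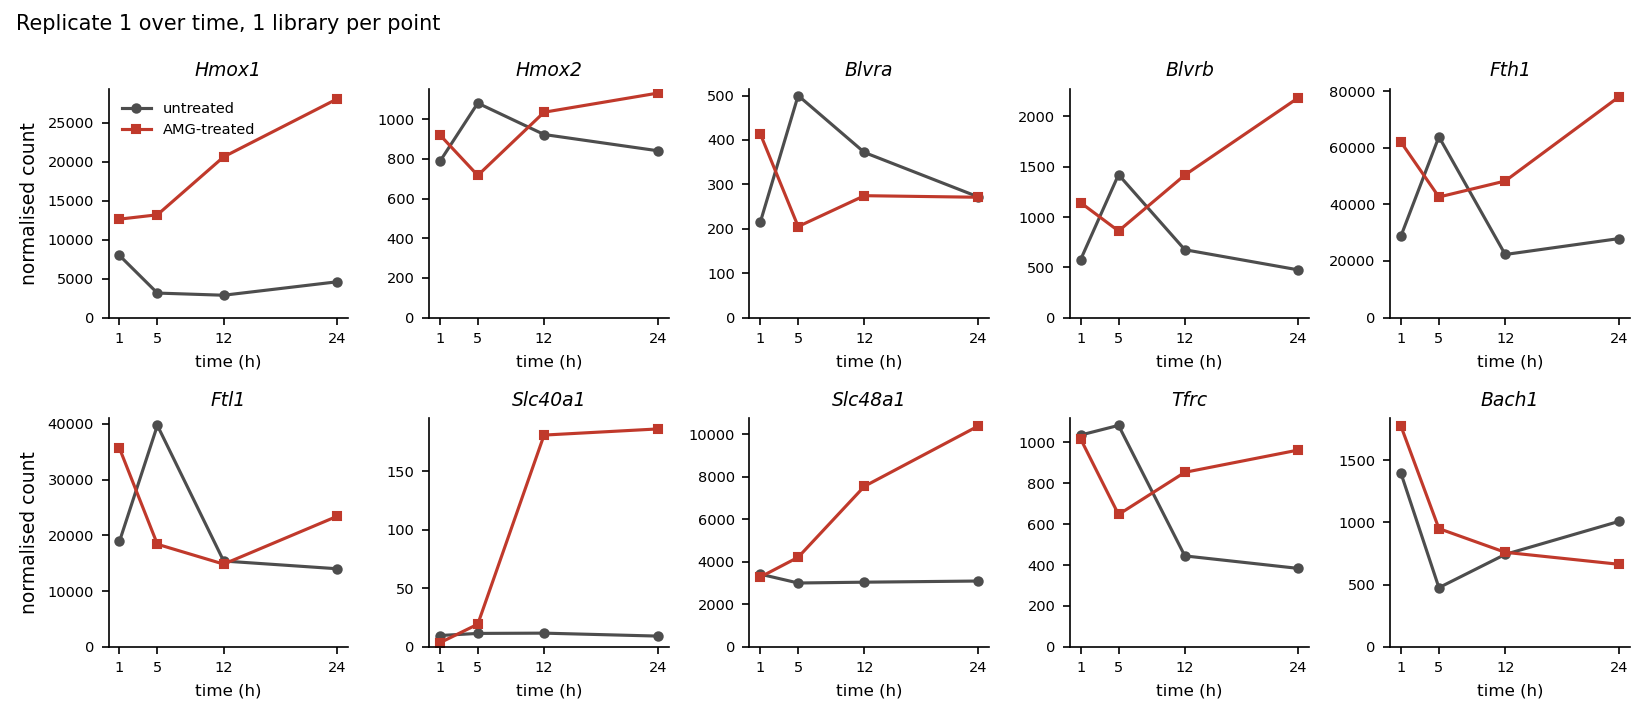
Normalised counts of the 10 genes in replicate 1 (linear axes from 0, 1 panel per gene) against time, at 1, 5, 12 and 24 h, 1 untreated and 1 AMG-treated library per time. The treated line of Hmox1 is above the untreated one throughout, those of Slc40a1 and Slc48a1 part at 12 and 24 h, and the untreated values of Blvra, Blvrb, Fth1 and Ftl1 peak at 5 h.

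Genes that work around these 10 were read at 5 h in replicates 2 to 4 from lists given by function. Of 16 NRF2 target genes, which defend against oxidants, all 16 had higher means after treatment, with a median log2 fold change of 1.51. The median over all genes tested was -0.02. In replicate 1 the medians of this list were 0.47, 0.33, 0.95 and 1.37 at 1, 5, 12 and 24 h. There 12, 11, 16 and 15 of the 16 were higher, and at 5 h Slc7a11 had 4.56 and Srxn1 0.62. By limma 8 passed and with the block 15, all higher, against 0.97% and 17.9% of all genes called higher. Slc7a11, the cystine importer, went from 41.6 ± 6.89 to 1871 ± 531 normalised counts (SD, n = 3), a log2 fold change of 5.43 (adjusted p = 0.00210), and Srxn1, which repairs oxidised peroxiredoxin, rose by 2.54 (0.0223). Over the alternative fits the largest adjusted p was 0.0306 for Slc7a11 and 0.123 for Srxn1, so the call of Srxn1 did not hold in all of them. Of the 6 tested partners of BACH1 and NRF2, Nfe2l2, which codes for NRF2, rose by 0.96 (adjusted p = 0.0226) and Mafg, a small MAF protein, by 1.27 (0.0211). The largest adjusted p of Mafg over the alternative fits was 0.130. The call of Nfe2l2 was lost without AMG-treated 5h replicate 2, a fit in which Slc7a11 was the only gene that passed. With the block 4 of the 5 that reached the filter's mean in both groups rose. Bach2, a relative of BACH1, entered the test through its untreated libraries alone and had 51.5 ± 32.7 untreated and 7.77 ± 4.46 treated.

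In the remaining iron and haem lists 1 gene passed the main test, and blocked counts stand beside 17.9% higher and 19.3% lower over all genes. Of 10 tested genes of iron uptake and reduction, Slc11a2 rose, the importer of ferrous iron, from 679 ± 21.96 to 1248 ± 86.3 normalised counts (log2 fold change 0.87, adjusted p = 0.0266). The largest adjusted p of Slc11a2 over the alternative fits was 0.160. With the block 4 rose and 2 fell of the 9 that reached the filter's mean in both groups. Steap4, a metalloreductase that entered the test through its treated libraries alone, had 5.95 ± 2.49 untreated and 124 ± 77.9 treated. Of 8 haem synthesis genes 0 passed with limma or edgeR, and 2 were at an unadjusted p under 0.05. With the block and with DESeq2, 1 was higher and 1 lower, and with the block these were Alas1, the first enzyme of the pathway (log2 fold change 1.18, blocked adjusted p = 0.000822), and Fech, which inserts the iron (-0.42, 0.00919). The median of the list was 0.05.

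For haem transport and scavenging 0 of 6 tested genes passed with limma, edgeR or DESeq2 or had an unadjusted p under 0.05, and with the block Abcg2, a haem and porphyrin exporter, was lower. Of 6 genes of iron storage, release and oxidation 0 passed with limma, edgeR or DESeq2, 2 had an unadjusted p under 0.05, and with the block 1 was higher and Ncoa4, the receptor that sends ferritin to the lysosome, lower (-0.69, blocked adjusted p = 0.0162). Of 4 iron sensing genes 0 passed with limma, edgeR or DESeq2 or at an unadjusted p under 0.05, and with the block Ireb2, an iron regulatory protein, was lower (-0.31, 0.0456). Of 6 mitochondrial iron genes 0 passed with limma or edgeR, 1 had an unadjusted p under 0.05 and passed with DESeq2, and with the block Slc25a37, an iron importer of the mitochondrion, and Iscu were higher (Slc25a37 by 1.15, 0.000206). The list medians were 0.11, 0.02, -0.05 and 0.10. Blocked calls in these 4 lists numbered 1 of 6, 2 of 6, 1 of 4 and 2 of 6, near or under the 37.2% of all genes.

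**Figure D4:**
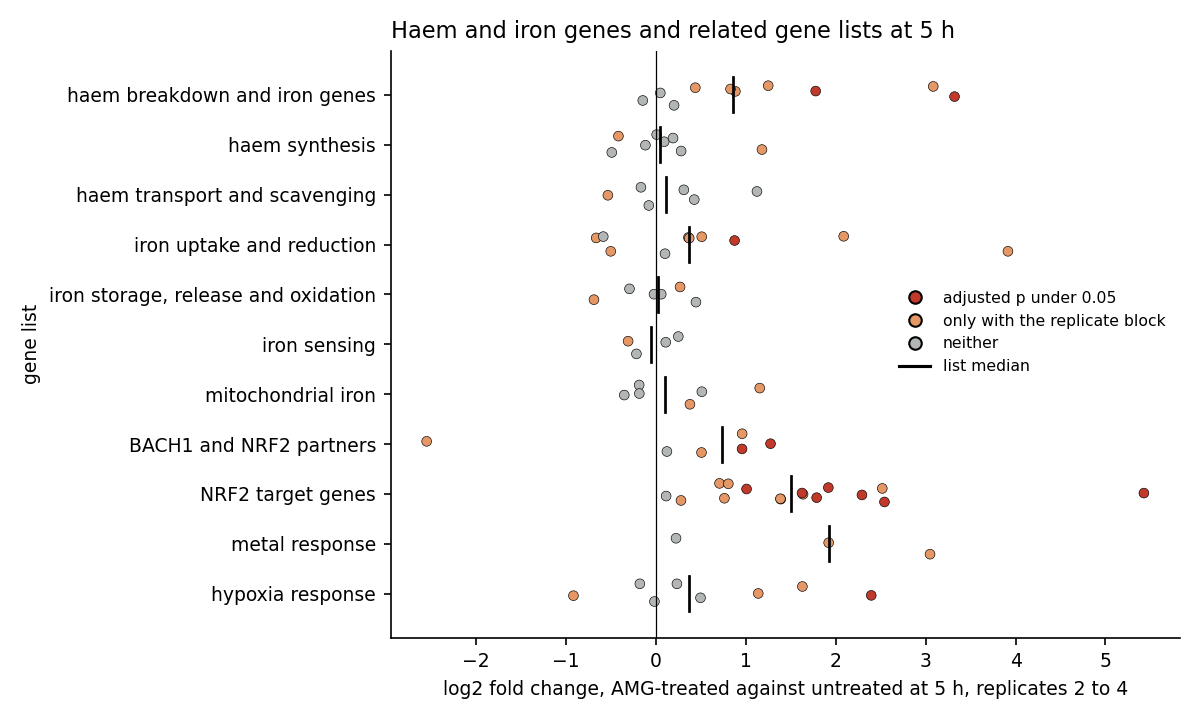
Log2 fold changes at 5 h (replicates 2 to 4, limma) of the 10 genes and of related genes by list, 1 point per gene, with the list median as a bar, red for an adjusted p under 0.05, orange for that only with the replicate block and grey for neither. The NRF2 target genes have a median of 1.51 and the 10 genes one of 0.86, while the haem synthesis, haem transport, iron storage, iron sensing and mitochondrial lists have medians between -0.05 and 0.11.

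Textbook patterns for haem and for iron can be set beside these values without a verdict on either. Haem relieves BACH1 and is known to raise Hmox1, Slc40a1, Fth1 and Ftl1 messages, which NRF2 also raises, so that haem and oxidative stress share most of these targets, and Slc7a11 and Srxn1 belong to the targets of NRF2. Iron load is known to lower Tfrc message through its 3′ elements, and to act on ferritin mainly at translation, which mRNA counts do not show. In these libraries Hmox1 was 10.0-fold higher at 5 h. Alas1, of haem synthesis, had a log2 fold change of 1.18 at 5 h (adjusted p = 0.105 by limma, 0.000822 with the block). Its log2 ratios in replicate 1 were 1.14, 1.33, 0.80 and 1.34 at 1, 5, 12 and 24 h. Tfrc did not pass the test at 5 h, where its pairs were -0.45, -0.23 and 0.24. In replicate 1 Tfrc had log2 ratios of -0.03, -0.74, 0.94 and 1.33 at those times. Its normalised counts there were 1036, 1083, 445 and 384 untreated, and 1017, 648, 854 and 963 treated. Haem and iron were not measured in the extract, and their part in these changes was not tested.

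The genes most like Hmox1 across the 14 libraries, by Pearson's r of log2 values centred within each table over 12834 genes, were Cxcl5, a neutrophil-attracting chemokine (0.97), Nos2, the inducible nitric oxide synthase (0.96), Slc7a11 (0.96), Gpr84, a receptor for medium-chain fatty acids (0.95), and Egln3, a prolyl hydroxylase (0.95). Among the other 9 genes r with Hmox1 was 0.82 for Slc48a1, 0.81 for Blvrb, 0.78 for Slc40a1, 0.77 for Fth1 and 0.49 for Bach1. It was 0.24 for Ftl1, 0.18 for Hmox2, 0.17 for Tfrc and -0.13 for Blvra. The libraries share treatment, time and replicate, so these values describe a common pattern and were not tested.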

How the data were processed

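RNA was sequenced by the authors from poly(A) stranded libraries (TruSeq) as single reads of 50 bases. Per the study's methods and the submitters' processing notes, reads were checked with FastQC 0.11.5, aligned to mm10 with TopHat 2.0.13, kept where unique (SAMtools 0.1.19.24) and counted per gene with HTSeq 0.5.3p3. The study's methods name another data series, and the study credits the present data to an earlier report. Library and alignment details taken from those methods may therefore be those of the other series. The annotation release and strand setting were not given in the sources used here. What was deposited is a normalised signal (normalised count): reads of a library over its size factor, set by the authors separately in 2 tables. Normalised counts were therefore not compared across tables, and only CPM and shares of reads (scaled by library total) were set side by side. The low values were whole multiples of 1 step, and 100% of values gave whole reads within a tolerance of 0.1. The edgeR test on these reads called 135 genes at 5 h. Library totals were 12545537 to 34696529 reads, and 3 reads, the floor, equalled 1.62 to 5.22 normalised counts. Intervals and floors cover counting error only.

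The main test was limma 3.58.1 (R 4.3.3, trend) on log2(value + 1), 13096 genes with a mean of at least 10, 3 against 3 libraries at 5 h, two-sided. Alternatives used edgeR 4.0.16, DESeq2 1.42.0, a replicate block, other filters and pseudocounts, a lowess correction for transcript length (GENCODE, 95.3% of tested genes matched) and leaving out libraries. Same-numbered libraries deviated together (r = 0.65, 0.76 and 0.70 for replicates 2, 3 and 4), so the numbers were taken as pairs. The replicates are called biological by the submitters, but whether each was a separate animal or culture is not given, so p-values measure the spread between these samples. The scripts were tested on simulated data. The 10 genes and the lists were chosen with earlier results of these data known. From each list, values are given for at most 3 tested genes with the largest absolute log2 fold change at 5 h, and for the 5 genes most like Hmox1. Nfe2l2, Lyz2, Ptprc, Krt5, Krt14, Krt1, Dcn, Lum, Pdgfra and Thy1 were named outside that rule, after their values were seen.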

Additional observations from a re-analysis of the deposited data

Results flagged for a closer look

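Among the 4 untreated libraries at 5 h, Untreated 5h replicate 1 lay far from the other 3 for 3 genes. Blvrb was at 62.7 CPM (reads scaled to an equal library total) there and at 11.3 to 15.2 in the others, Fth1 at 2819 against 691 to 1018, and Ftl1 at 1755 against 713 to 815. In each case the gap to the nearest library took a share of the whole range (0.924, 0.846 and 0.902) above Dixon's limit for 4 samples, and 20 groups of 4 were searched, of which chance passes about 1 in 20. That library is in another table than the other 3, and the untreated libraries at 1, 12 and 24 h in its table were also above them for Blvrb (27.0 to 37.5 CPM) and Fth1 (1239 to 1588), and at 798 to 906 for Ftl1. The same library had the highest ribosomal share, 6.93% of reads, and its part in these values was not tested.

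For 3 genes the pair of replicate 1 at another time went opposite to all 4 pairs at 5 h, and none of these differences was tested. Slc40a1 had a log2 ratio of -1.25 at 1 h, resting on 11 and 2 reads, and 0.71 to 4.10 at 5 h. Slc48a1 had -0.059 at 1 h (fold 0.960, 95% counting interval 0.908 to 1.01, length-corrected log2 ratio 0.0037) and 0.49 to 0.97 at 5 h, so its opposite sign is within counting error, and Bach1 had -0.60 at 24 h and 0.41 to 1.24 at 5 h.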

How the results depend on the processing

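The main test at 5 h called 162 genes, 2 of them among the 10 haem and iron genes. The counts were 4872 and 7 with the replicate block, 4852 and 7 with edgeR and the block, 1434 and 7 with DESeq2, 4183 and 6 with the length correction and the block together, 218 and 3 with the length correction, 80 and 1 without the trend, and 231 and 1 with edgeR when replicate 1 at 5 h was added and the table taken as batch. Leaving out 1 library gave 1 to 2199 genes and 0 to 5 of the 10: without AMG-treated 5h replicate 2 limma called 1 gene and 0 of the 10 (1893 genes at an unadjusted p under 0.05), and without AMG-treated 5h replicate 3 it called 2199 and 5. Without Untreated 5h replicates 2, 3 and 4 the counts were 10, 59 and 9 genes, and without AMG-treated 5h replicate 4 they were 6, with 1 of the 10 each. Chosen after seeing the data, edgeR on all 4 replicates with the block gave 495 and 2, and the block without the pair of replicate 2, 3 or 4 gave 1508 and 5, 6803 and 7, and 2678 and 6. Every count of 3 or more of the 10 included Slc40a1, which entered the test through its treated libraries alone.

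The median of the 10 genes lay between 0.75 and 0.94 in all 23 alternatives at 5 h. In the 3 against 3 comparison and its edgeR extensions reversed signs were found for genes whose main value was near 0. Hmox2 gave -0.10 in both edgeR fits that added replicate 1, -0.13 with the length correction, block or not, and -0.037 to 0.108 when 1 library was left out (-0.037 without Untreated 5h replicate 3, -0.010 without AMG-treated 5h replicate 4). Blvra gave -0.15 in both edgeR fits and -0.092 with the length correction, block or not, and Tfrc gave 0.0054 with the block and without the pair of replicate 2. In replicate 1 the length correction gave a median of the 10 genes of 0.13 (1 h), 0.17 (5 h) and 1.31 (24 h), and upper quartile scaling gave -0.67 (5 h). The length correction also turned 8 signs in replicate 1, among them those of Fth1 (0.22) and Blvrb (0.12) at 5 h and of Ftl1 at 1 h (-0.068). Causes of these shifts were not tested. Depth limited Slc40a1 most, with 2 to 8 reads in untreated libraries of replicates 2 to 4.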

Other observations

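Genes that answer to metals and to low oxygen were also read at 5 h in replicates 2 to 4. Mt2 and Mt1, metallothioneins that bind zinc and copper, had 1166 ± 623 and 1295 ± 574 normalised counts in untreated and 10291 ± 6215 and 5402 ± 3295 in treated cultures (SD, n = 3). By limma 0 of the 3 metal response genes passed (Mt2, log2 fold change 3.05, adjusted p = 0.0779), as with edgeR, while 2 had an unadjusted p under 0.05 and 2 passed with DESeq2 and with the block (Mt2, 4.76e-07). Over all genes DESeq2 called 1434 of 13096, and the blocked fit called 37.2%. In replicate 1 at 1, 5, 12 and 24 h the log2 ratios of Mt2 were 2.79, 1.09, 2.94 and 3.76. Those of Mt1 were 1.65, 0.0048, 1.52 and 2.43. Of 8 hypoxia response genes Egln3 rose, by 2.39 (adjusted p = 0.0496 by limma), close to the threshold, and its largest adjusted p over the alternative fits was 0.219. With the block 3 of the 8 were higher and 1 lower, against 17.9% and 19.3% of all genes.

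In replicate 1 the ratio of Fth1 to Ftl1 reads was 1.52 untreated and 1.74 treated at 1 h, 1.61 and 2.31 at 5 h, 1.45 and 3.25 at 12 h, and 1.99 and 3.32 at 24 h. It was thus higher in the treated library at each time, the 5 h pair included, where both chains taken alone were lower in the treated library.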
